A study of Mus musculus with 6 samples.

Results

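The cell cycle and proliferation genes described here are 33 genes of S phase and mitosis, taken by name for their known roles, from a list drawn up with earlier results of these data known. All 33 were found among the 46603 gene identifiers of the count tables, and all 33 were among the 15828 genes with enough counts to be tested. They fall into 12 replication genes (Mcm2, Mcm3, Mcm4, Mcm5, Mcm6, Mcm7, Pcna, Rrm1, Rrm2, Tyms, Ccne1 and Ccne2) and 21 mitotic genes (Mki67, Top2a, Ccna2, Ccnb1, Ccnb2, Cdk1, Cdc20, Bub1, Bub1b, Aurka, Aurkb, Birc5, Plk1, Tpx2, Cenpa, Cenpe, Cenpf, Kif11, Ube2c, Nusap1 and Hmmr). The libraries came from visceral fat, the fat of the abdominal cavity, of untreated C57/Bl6 mice aged 18 months. Wild-type mice (WT) gave 3 libraries, and mice without nuclear myosin 1 (NM1 KO) gave 3. Nuclear myosin 1 is a form of the motor protein encoded by Myo1c that works in the nucleus. The labels do not say how the knockout was made. They number the replicates but leave unsaid whether each came from its own mouse, so p-values reflect the spread among these samples alone, which may be technical.

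A dividing cell copies its DNA in S phase and separates the copies in mitosis. Replication genes are switched on by E2F factors when a cell leaves G1, whereas mitotic genes are held silent in resting cells by the DREAM complex and switched on later by MYBL2 and FOXM1 through a promoter element called CHR, often together with CCAAT boxes bound by NF-Y. Fat tissue turns over slowly, and its dividing cells are mostly macrophages, other immune cells, stromal progenitors and endothelial cells, since mature fat cells rarely divide.

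The promoter windows of 28 of the 33 genes run from 250 bases before to 50 bases after the start site (RefSeq, GRCm38.p6). They are the sequence side of the contrast between the 2 classes, and 5 of them are shown as chosen examples. They are Mcm6 at chr1:128359656-128359955 (minus strand), Mcm3 at chr1:20820263-20820562 (minus strand), Top2a at chr11:99024140-99024439 (minus strand), Mki67 at chr7:135716330-135716629 (minus strand) and Cdk1 at chr10:69352863-69353162 (minus strand). Each is written 5′ to 3′ on the strand of its gene, with matches in capitals to the E2F letters (TTTCCCGC, TTTCGCGC, TTTGCCGC or TTTGGCGC), the CHR letters (TTTGAA or TTCGAA) and the NF-Y letters (CCAAT), searched on both strands.
Mcm6: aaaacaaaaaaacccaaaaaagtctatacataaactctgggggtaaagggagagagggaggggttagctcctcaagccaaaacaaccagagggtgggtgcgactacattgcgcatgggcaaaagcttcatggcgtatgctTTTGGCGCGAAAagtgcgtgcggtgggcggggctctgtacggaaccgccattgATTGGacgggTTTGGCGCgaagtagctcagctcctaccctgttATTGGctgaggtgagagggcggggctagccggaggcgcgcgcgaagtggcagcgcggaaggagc
Mcm3: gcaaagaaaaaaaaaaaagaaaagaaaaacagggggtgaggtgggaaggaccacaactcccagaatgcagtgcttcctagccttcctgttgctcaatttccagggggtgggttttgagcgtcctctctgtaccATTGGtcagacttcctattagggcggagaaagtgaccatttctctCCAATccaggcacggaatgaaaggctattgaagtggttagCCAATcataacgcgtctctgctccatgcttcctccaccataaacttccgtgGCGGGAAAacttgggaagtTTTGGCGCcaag
Top2a: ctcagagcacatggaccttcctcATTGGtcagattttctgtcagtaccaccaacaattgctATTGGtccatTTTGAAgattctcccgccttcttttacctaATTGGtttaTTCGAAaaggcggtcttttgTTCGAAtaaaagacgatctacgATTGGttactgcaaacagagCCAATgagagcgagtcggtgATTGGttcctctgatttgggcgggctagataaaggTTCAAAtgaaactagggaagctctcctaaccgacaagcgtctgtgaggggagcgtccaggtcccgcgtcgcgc
Mki67: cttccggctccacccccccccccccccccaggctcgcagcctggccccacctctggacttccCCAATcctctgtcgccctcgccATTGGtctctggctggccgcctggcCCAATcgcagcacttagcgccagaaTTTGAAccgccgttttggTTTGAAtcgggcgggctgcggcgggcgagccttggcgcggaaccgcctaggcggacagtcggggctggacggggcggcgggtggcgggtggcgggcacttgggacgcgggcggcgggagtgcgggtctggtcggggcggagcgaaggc
Cdk1: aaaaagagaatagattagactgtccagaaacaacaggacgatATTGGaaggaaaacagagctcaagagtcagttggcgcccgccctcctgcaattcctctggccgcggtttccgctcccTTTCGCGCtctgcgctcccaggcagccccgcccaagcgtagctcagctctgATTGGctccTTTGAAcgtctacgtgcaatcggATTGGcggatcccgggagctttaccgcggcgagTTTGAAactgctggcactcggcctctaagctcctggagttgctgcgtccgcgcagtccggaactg

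Mcm6 and Mcm3 carry E2F letters and no CHR letters, and in Mcm6 the first pair of E2F matches overlap each other. Top2a and Mki67 carry CHR letters and CCAAT boxes and no E2F letters, and Cdk1 carries all 3. These examples do not stand for every member. The windows of Pcna, Rrm1 and Rrm2 held no E2F letters, and those of Birc5 and Cenpe held no CHR letters. Over all members, E2F letters stood in 4 of 11 replication windows (36.4%, with Mcm7 giving more than 1 window), in 1 of 18 mitotic windows (5.56%) and in 2.26% of the 32851 windows of all genes. CHR letters stood in 2 of 11 replication windows (18.2%), in 14 of 18 mitotic windows (77.8%) and in 19.2% of all windows. CCAAT stood in 9 of 11 and 16 of 18, against 37.4% of all windows. These are letter matches in 1 window per start site, not measured binding.

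The libraries held between 24677758 and 33537818 gene counts, and their precision is limited by there being 3 per group. Levels are given as CPM, counts per 1e6 counts after scaling by TMM factors. Fat cell transcripts were abundant in each library (Adipoq between 1818 and 2549 CPM). Myo1c stood at 801, 759 and 801 CPM in WT replicates 1 to 3 and at 452, 697 and 551 CPM in NM1 KO replicates 1 to 3 (log2 fold change -0.47 ± 0.17 SE, edgeR adjusted p = 0.151). That count covers the whole locus, whose other products share its reads, and does not check the knockout. The libraries also differed in how their expression, taken relative to the mean of the 6 libraries, followed the GC content of the genes. Spearman's rho of these relative levels was between 0.117 and 0.314 in WT and 0.248 in NM1 KO replicate 2. It was -0.396 and -0.425 in NM1 KO replicates 1 and 3. Being relative, a positive rho in some libraries goes with a negative rho in others.

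Nearly all of the cell cycle genes had a higher mean level in NM1 KO than in WT, by little for replication genes and by more for mitotic genes, yet none passed the test across all genes. Of the 33, 31 had a log2 fold change (NM1 KO minus WT) above 0, where 49.7% of all tested genes did. The median was 0.27 for the 12 replication genes and 0.69 for the 21 mitotic genes, against -0.0021 for all tested genes. A gene was called when its adjusted p in edgeR's quasi-likelihood test over all genes was under 0.05. By that rule 0 of the 33 were called, where 4.25% of all tested genes were. At an unadjusted p under 0.05, 13 were higher and 0 lower, where 13.0% of all tested genes were higher and 10.8% lower. For 13 members every NM1 KO library lay above every WT library, where 14.9% of all tested genes were so placed, and for 0 members below. DESeq2 called 6 of the 33 (Mcm6, Pcna, Top2a, Ccnb1, Birc5 and Tpx2, all higher, where it called 8.23% of genes higher), and limma-voom with sample quality weights called 3 (Mcm6, Pcna and Top2a, where it called 6.10% higher). The calls depended on the tool and the libraries. edgeR called Mcm6 and Top2a without NM1 KO replicate 2 (adjusted p = 0.0361 and 0.022, where 7.26% of genes were called higher), and Top2a with no filter on low counts (adjusted p = 0.0225, where 2.29% were). The count of 13 at an unadjusted p under 0.05 was 6 without WT replicate 3 (9.90% of all genes higher) and 7 without NM1 KO replicate 1 (9.85%).

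**Figure D1:**
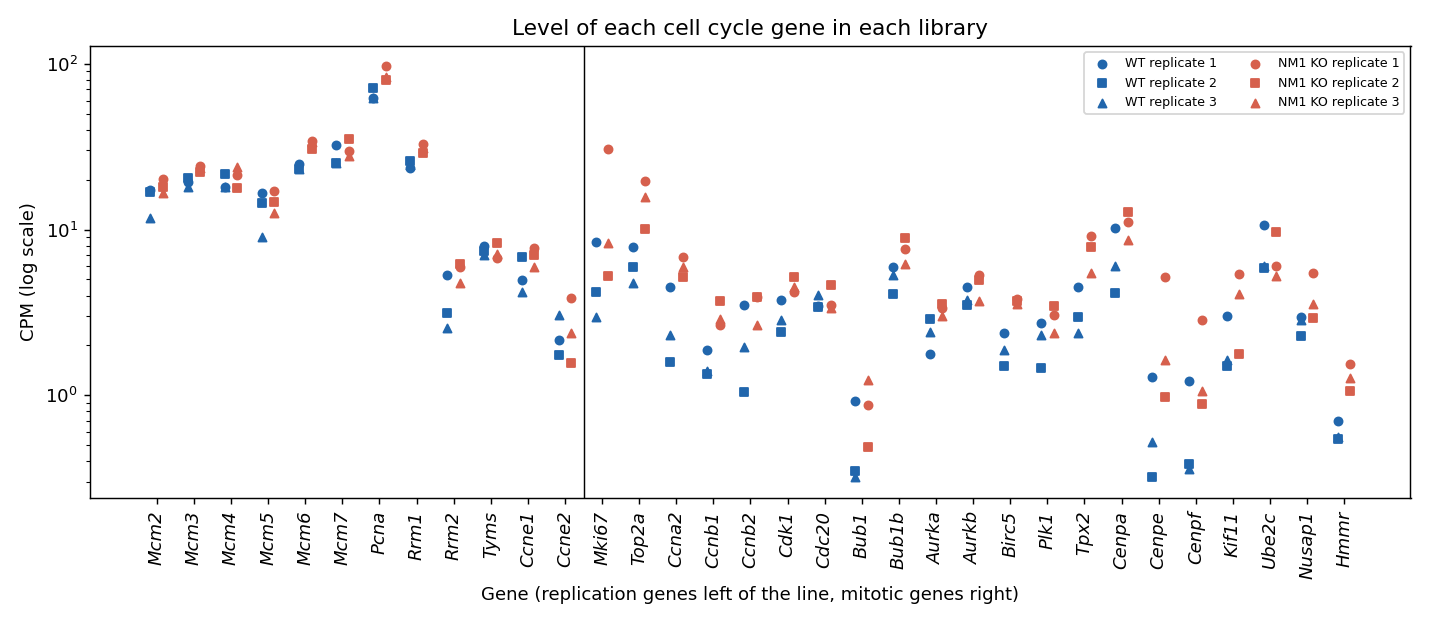
CPM of each of the 33 genes in each library on a log axis, with WT in blue, NM1 KO in red and 1 marker shape per replicate number. Replication genes lie mostly above 10 CPM and close together, and most mitotic genes lie below 10 CPM with a wider spread, widest for Mki67 and Cenpe, where NM1 KO replicate 1 stands above the rest.

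Levels per length differed between the classes. In WT, CPM per kilobase of exon ran from 0.663 (Ccne2) to 27.1 (Pcna) among replication genes, and from 0.0424 (Cenpf) to 2.89 (Ube2c) among mitotic genes. Raw counts ran from 8 (Bub1 in WT replicate 3) to 2993 (Pcna in NM1 KO replicate 1). Bub1, Hmmr, Cenpe and Cenpf rested on the fewest counts.

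The MCM genes encode the ring of 6 subunits that is loaded at replication origins and unwinds DNA. Mcm6 (ENSMUSG00000026355, chromosome 1, 128331590 to 128359664 on GRCm38) stood at 24.7, 23.3 and 23.2 CPM in WT replicates 1 to 3 and at 34.0, 30.6 and 34.0 CPM in NM1 KO replicates 1 to 3, in that order. Each NM1 KO library lay above each WT library. This gave a log2 fold change of 0.47 ± 0.11, whose adjusted p of 0.0567 was the smallest of the 33 and short of the threshold. Mcm3 stood at 19.3, 20.4 and 18.0 CPM in WT and 24.1, 22.1 and 23.5 CPM in NM1 KO, again without overlap (log2 0.27 ± 0.12, adjusted p = 0.204). The other MCM genes overlapped between the groups. Mcm2 ran from 11.7 to 17.2 CPM in WT and from 16.7 to 20.05 CPM in NM1 KO. Mcm5 was lowest in WT replicate 3 (9.02 CPM, against 12.6 to 17.2 CPM elsewhere), and its log2 fold change of 0.15 ± 0.25 was -0.074 without that library. Mcm4 and Mcm7 had log2 fold changes of 0.12 ± 0.15 and 0.16 ± 0.15. The 6 subunits of 1 ring thus had log2 fold changes from 0.12 to 0.47, of which those of Mcm3 and Mcm6 alone came with ranges that did not overlap.

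Pcna, the sliding clamp that tethers DNA polymerase to its template, was the most abundant member per length. It stood at 61.8, 71.3 and 61.8 CPM in WT and 96.3, 79.4 and 83.1 CPM in NM1 KO (log2 0.41 ± 0.12, adjusted p = 0.0956). The groups did not overlap, and NM1 KO replicate 1 was highest. Its 2 annotated processed copies, Pcna-ps1 and Pcna-ps2, reached at most 0 and 13 counts, so little of the locus was shared with them as counted.

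The genes of nucleotide supply differed from each other. Rrm1, the large subunit of ribonucleotide reductase, stood at 23.5, 26.1 and 24.6 CPM in WT and 32.8, 29.1 and 31.0 CPM in NM1 KO (log2 0.32 ± 0.11, adjusted p = 0.131). Rrm2, the small subunit that limits the enzyme in S phase, stood at 5.32, 3.13 and 2.56 CPM in WT and 5.99, 6.23 and 4.77 CPM in NM1 KO (log2 0.62 ± 0.31, adjusted p = 0.276). WT replicate 1 lay above NM1 KO replicate 3 for Rrm2, so those ranges overlap. Tyms, thymidylate synthase, ran from 7.05 to 7.91 CPM in WT and from 6.69 to 8.30 CPM in NM1 KO, with a log2 fold change of -0.018 ± 0.17. Rrm1 is 1 member whose value depended on the correction for GC content and length described below, under which its log2 fold change was -0.00023.

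Cyclin E drives the step from G1 into S phase. Ccne1 ran from 4.21 to 6.87 CPM in WT and from 5.94 to 7.76 CPM in NM1 KO (log2 0.36 ± 0.24, adjusted p = 0.403). Ccne2 ran from 1.76 to 3.05 CPM in WT and from 1.56 to 3.86 CPM in NM1 KO (log2 0.17 ± 0.41). Ccne2 was highest in NM1 KO replicate 1, and without that library its log2 fold change was -0.22. The exons of Ccne2 overlap those of Ints8 on the opposite strand over 17.4% of their length, and the strand setting of the counting is not given, so its level is uncertain.

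Among the mitotic genes, the proliferation markers Mki67 and Top2a were examined first. Top2a (ENSMUSG00000020914, chromosome 11, 98992943 to 99024189), the topoisomerase that untangles sister chromatids, stood at 7.88, 5.95 and 4.77 CPM in WT and 19.5, 10.04 and 15.6 CPM in NM1 KO. The groups did not overlap, the log2 fold change was 1.28 ± 0.30, and the adjusted p was 0.0599. Mki67, which encodes the Ki-67 protein that coats mitotic chromosomes, stood at 8.39, 4.19 and 2.97 CPM in WT and 30.6, 5.22 and 8.31 CPM in NM1 KO. Its mean rested on 1 library, since NM1 KO replicate 1 was far above the others and NM1 KO replicates 2 and 3 lay below WT replicate 1. The log2 fold change was 1.51 ± 0.70 (adjusted p = 0.248) with all libraries and 0.40 without NM1 KO replicate 1. Top2a had 1.07 without that library (adjusted p = 0.133). So the 2 classical markers of cycling cells differed in how widely their higher level was shared among the NM1 KO libraries.

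The mitotic cyclins and their kinase were higher in each NM1 KO library for 3 of 4 genes. Cdk1, the kinase that starts mitosis, stood at 3.77, 2.40 and 2.85 CPM in WT and 4.22, 5.16 and 4.48 CPM in NM1 KO (log2 0.62 ± 0.26, adjusted p = 0.197). Ccnb1, cyclin B1, stood at 1.89, 1.34 and 1.40 CPM in WT and 2.67, 3.69 and 2.88 CPM in NM1 KO (log2 1.00 ± 0.29, adjusted p = 0.0995). Ccna2, cyclin A2, which acts in both S phase and G2, stood at 4.51, 1.60 and 2.32 CPM in WT and 6.85, 5.16 and 5.94 CPM in NM1 KO (log2 1.09 ± 0.39, adjusted p = 0.152). These 3 did not overlap between the groups. Ccnb2, the fourth, ran from 1.05 to 3.51 CPM in WT and from 2.66 to 3.94 CPM in NM1 KO (log2 0.69 ± 0.45). An annotated transcribed copy, Ccnb2-ps, reached 40 counts in 1 library, against at most 129 for Ccnb2, so reads of the 2 could have been split. Ccna2 shares 12.5% of its exonic length with Exosc9 on the opposite strand.

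The chromosomal passenger and Aurora kinase genes gave a mixed picture. Birc5, survivin, stood at 2.37, 1.502 and 1.88 CPM in WT and at 3.80, 3.72 and 3.53 CPM in NM1 KO (log2 0.94 ± 0.27, adjusted p = 0.0936). The NM1 KO libraries were close to each other and all above WT. Aurkb, the kinase that survivin recruits to centromeres, ran from 3.52 to 4.51 CPM in WT and from 3.72 to 5.31 CPM in NM1 KO (log2 0.25 ± 0.24, adjusted p = 0.573). Tpx2, which activates Aurora A on spindle microtubules, stood at 4.51, 2.97 and 2.36 CPM in WT and 9.11, 7.87 and 5.50 CPM in NM1 KO (log2 1.19 ± 0.31, adjusted p = 0.0786). Aurka itself ran from 1.77 to 2.88 CPM in WT and from 3.02 to 3.54 CPM in NM1 KO, without overlap (log2 0.49 ± 0.27, adjusted p = 0.325). In each of the 2 pairs, the partner had a larger fold change than the kinase; that difference was not tested.

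Checkpoint and mitotic exit genes held the 2 mitotic differences closest to 0, those of Cdc20 and Ube2c. Bub1b, a checkpoint kinase-like protein, stood at 5.92, 4.09 and 5.33 CPM in WT and 7.66, 8.88 and 6.16 CPM in NM1 KO (log2 0.57 ± 0.23, adjusted p = 0.194), without overlap. Bub1, its partner at the kinetochore, had at most 34 counts in any library and overlapped (log2 0.69 ± 0.57). Plk1, a kinase of mitotic entry and spindle assembly, ran from 1.47 to 2.74 CPM in WT and from 2.37 to 3.48 CPM in NM1 KO (log2 0.45 ± 0.33). Cdc20, the activator of the anaphase-promoting complex, had a log2 fold change of 0.077 ± 0.24, which was -0.083 without NM1 KO replicate 2. Ube2c, the ubiquitin-conjugating enzyme of that complex, stood at 10.6, 5.88 and 6.01 CPM in WT and at 6.05, 9.71 and 5.28 CPM in NM1 KO (log2 -0.098 ± 0.33). Its highest values were in WT replicate 1 and NM1 KO replicate 2, and its exons overlap those of Tnnc2 on the opposite strand over 22.8% of their length.

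Centromere, kinetochore and spindle genes split by library. Cenpe, a kinetochore motor, stood at 1.29, 0.320 and 0.521 CPM in WT and at 5.15, 0.977 and 1.64 CPM in NM1 KO. It had the largest fold change of the 33 (log2 1.86 ± 0.77, adjusted p = 0.199), which was 0.89 without NM1 KO replicate 1. Cenpf, a large kinetochore protein, stood at 1.22, 0.384 and 0.361 CPM in WT and 2.83, 0.885 and 1.06 CPM in NM1 KO (log2 1.28 ± 0.67, and 0.58 without that library). Kif11, the motor that pushes spindle poles apart, ran from 1.502 to 2.995 CPM in WT, and NM1 KO replicate 2 (1.77 CPM) lay inside that range while replicates 1 and 3 (5.37 and 4.08 CPM) did not. Cenpa, the histone variant of centromeres, ran from 4.16 to 10.3 CPM in WT and from 8.71 to 12.8 CPM in NM1 KO (log2 0.67 ± 0.34). Nusap1, a microtubule bundling protein, had a log2 fold change of 0.56 ± 0.31. Hmmr, a spindle-associated hyaluronan receptor, was low but did not overlap, at 0.703, 0.543 and 0.561 CPM in WT and 1.54, 1.07 and 1.28 CPM in NM1 KO (log2 1.10 ± 0.35, adjusted p = 0.118).

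**Figure D2:**
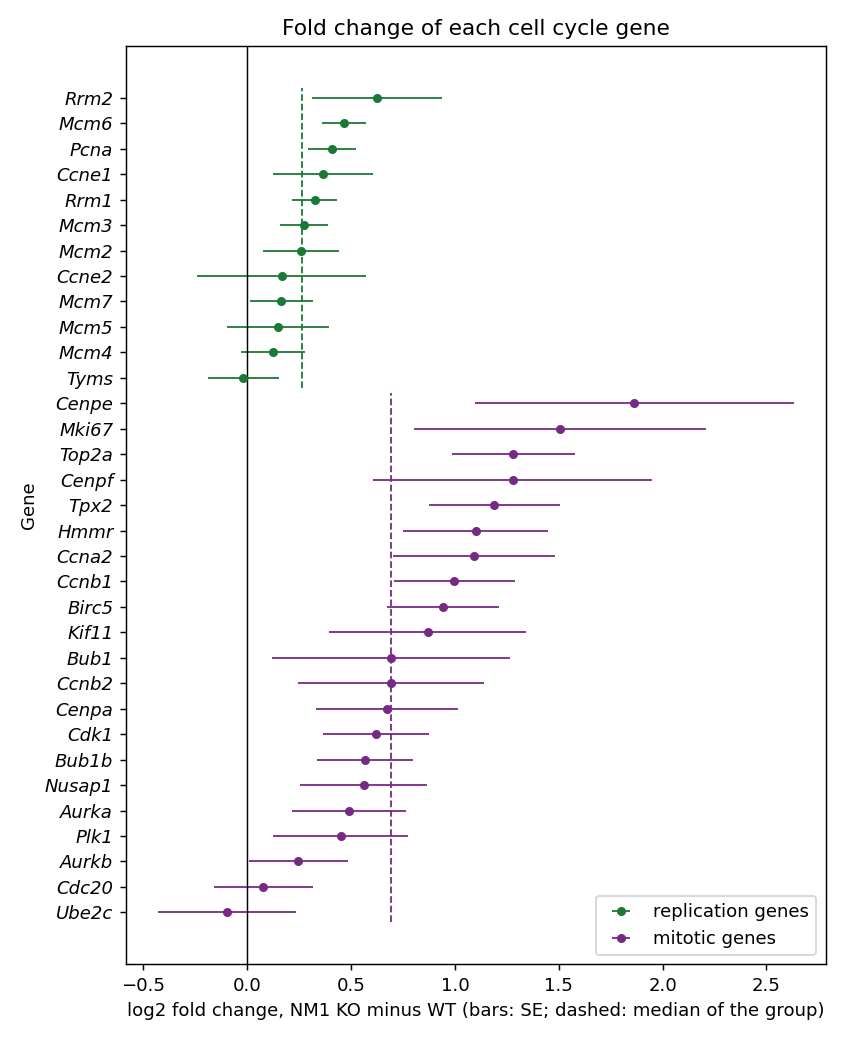
The log2 fold change of each gene (NM1 KO minus WT, edgeR) with its SE as a bar, replication genes in green and mitotic genes in purple, and the median of each class as a dashed line. Replication genes lie between -0.018 and 0.62 and mitotic genes between -0.098 and 1.86, with the longest bars at Cenpe, Mki67 and Cenpf.

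The replication and mitotic genes were then compared as classes. Of the 12 replication genes, 4 had ranges that did not overlap (Mcm3, Mcm6, Pcna and Rrm1), and the same 4 had an unadjusted p under 0.05. Of the 21 mitotic genes, 9 did not overlap (Top2a, Ccna2, Ccnb1, Cdk1, Bub1b, Aurka, Birc5, Tpx2 and Hmmr), and 9 had an unadjusted p under 0.05. Over all tested genes, 14.9% did not overlap with NM1 KO higher, and 13.0% were higher at that p. The counts were 1458 and 1300 among the 9643 tested genes in the CPM range of the replication members. They were 621 and 542 among the 4784 in that of the mitotic members. The mean fold was over 1.5 for 1 replication gene and 14 mitotic genes, and over 2 for 0 and 7. Over all tested genes, 13.0% were higher by more than 1.5-fold and 5.93% by more than 2-fold, and among genes in the CPM range of the mitotic members 19.5% and 10.7% were. Low genes scatter more, so the wider spread of the mitotic class lies beside its lower counts. Among the 4784 tested genes within the mean CPM range of the mitotic members, the median was 0.015 and 51.1% were above 0, and among the 9643 within the range of the replication members the median was 0.0051.

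Summed over genes, the 12 replication genes came to 234, 239 and 208 CPM in WT replicates 1 to 3 and to 300, 270 and 273 CPM in the NM1 KO libraries in the same order. These sums did not overlap between groups (227 ± 16.6 against 281 ± 16.5 CPM, mean ± SD, n = 3 each). The 21 mitotic genes came to 86.3, 51.8 and 56.7 CPM in WT and to 142, 101 and 94.4 CPM in NM1 KO (64.9 ± 18.7 against 112 ± 25.8 CPM). These did not overlap either, but WT replicate 1 came close to NM1 KO replicate 3. The mitotic sum as a share of the replication sum was 36.8%, 21.7% and 27.2% in WT and 47.3%, 37.4% and 34.6% in NM1 KO. That share did overlap, because WT replicate 1 lay above NM1 KO replicate 3. Sums over chosen members were given no test.

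**Figure D3:**
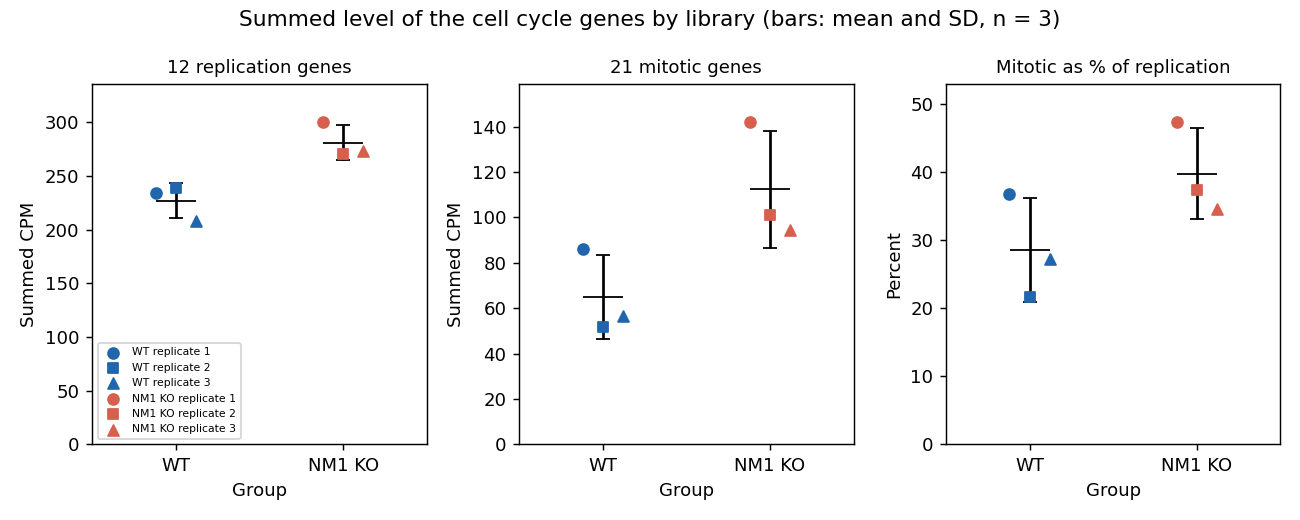
Summed CPM of the replication genes (left) and mitotic genes (middle) and the mitotic sum as a percent of the replication sum (right) in each library, with the mean and SD of each group (n = 3). Both sums are higher in each NM1 KO library than in each WT library, and the percent overlaps between the groups through WT replicate 1.

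WT replicate 1 stood apart from the other WT libraries in the mitotic class. It was the highest WT library for 19 of the 21 mitotic genes and for 6 of the 12 replication genes, where 31.7% of all tested genes were highest there. Against the WT mean, the median mitotic gene stood at 0.37, -0.29 and -0.084 (log2) in WT replicates 1 to 3 and at 0.98, 0.70 and 0.78 in NM1 KO replicates 1 to 3. The median replication gene stood at 0.032, 0.083 and -0.093 in WT and at 0.41, 0.25 and 0.23 in NM1 KO. Without WT replicate 1, the mitotic median was 1.16 and the difference between the class medians 0.86, against 0.69 and 0.43 with all libraries. Of the 21 mitotic genes, 18, 14 and 13 were above all WT libraries in NM1 KO replicates 1, 2 and 3. Of the 12 replication genes, 9, 9 and 5 were. The share of all tested genes so placed in each library was not counted, so these counts describe the members alone.

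Among the members, NM1 KO replicates 1 and 2 differed by the largest ratio in 4 mitotic genes. Mki67, Cenpe, Cenpf and Kif11 were 5.87, 5.27, 3.20 and 3.04 times as high in NM1 KO replicate 1 as in replicate 2, whereas Ccnb1, Cdc20 and Ube2c were higher in replicate 2 (ratios of 0.723, 0.756 and 0.623). Over the 33 genes, Spearman's rho between the log2 ratio of these libraries and GC content was -0.68, and over all 15760 tested genes with a GC value it was -0.45. With exonic length, rho of the same ratio was 0.43 over the 33 genes, 0.64 over the mitotic genes and 0.14 over all genes. For the ratio of NM1 KO replicate 1 to replicate 3, which had similar GC trends, rho with GC content was -0.10 over the 33 genes and -0.15 over all genes, although Mki67, Cenpe and Cenpf were higher in replicate 1 there too. The genes share these libraries and are not independent replicates, so the values are a description. The fold change itself had a rho with GC content of -0.66 over the mitotic genes, -0.091 over the replication genes, -0.50 over all 33 and -0.32 over all tested genes. When a smooth trend of each library on GC content and exonic length was taken out in the fit, the median was 0.61 for mitotic genes and 0.24 for replication genes. Under that correction 0 of the 33 were called (4.69% of all genes were) and 10 had an unadjusted p under 0.05, all higher, where 11.3% of all genes were. Top2a kept a log2 fold change of 0.96 and Tpx2 one of 1.13, while Mki67 had 1.21 and Cenpe 1.5.

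**Figure D4:**
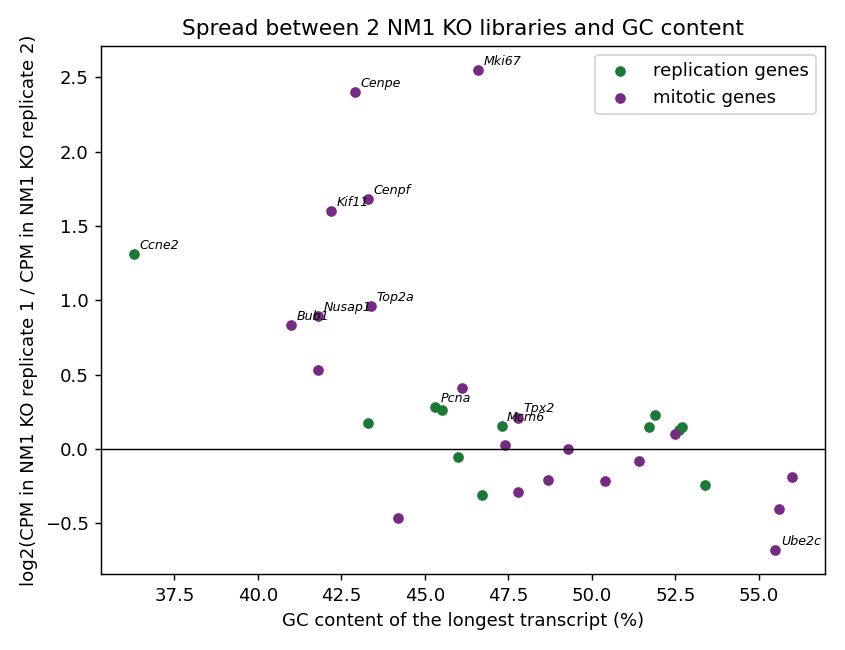
The log2 ratio of CPM in NM1 KO replicate 1 to that in NM1 KO replicate 2 against the GC content (%) of each gene's longest transcript, replication genes in green and mitotic genes in purple. Mki67, Cenpe, Cenpf, Kif11 and Ccne2 lie above 1 at GC contents under 47%, and Ube2c lies lowest at 55.5%.

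Markers of cell types that could carry these transcripts were read from the same libraries. In bulk tissue, fewer cells of a type and less RNA per cell cannot be told apart, nor can more of either. Markers of lipid-associated macrophages, which take up lipid from fat cells, summed to between 4360 and 5660 CPM in WT and between 6720 and 12000 CPM in NM1 KO. Most of that sum was Lpl, lipoprotein lipase, which fat cells also make and which was not called (edgeR adjusted p = 0.245). The other 7 summed to 486, 297 and 274 CPM in WT and to 3460, 1840 and 1540 CPM in NM1 KO. Of the 8, 6 rose (Trem2, Gpnmb, Cd9, Lgals3, Atp6v0d2 and Itgax). Over all 15828 tested genes, 49.7% were positive, 441 were called higher and 232 lower. Without WT replicates 1, 2 and 3, the 6 became 1, 0 and 0, and 37, 4 and 1 of all genes were called. Without NM1 KO replicates 1, 2 and 3, the 6 became 3, 6 and 0, and 244, 1654 and 5 of all genes were called. Of 9 general macrophage markers, 8 were positive and 2 rose, Adgre1 and Cd68 (sums of 1840 to 2400 against 2920 to 3080 CPM), and 0 were called without WT replicate 2 or 3 or NM1 KO replicate 3. The T cell sum was 43.3, 10.8 and 39.8 CPM in NM1 KO replicates 1 to 3 against 12.4 to 17.8 CPM in WT, with 8 of 8 markers positive and 0 called (3 without NM1 KO replicate 2). The B cell sum was 268 CPM in NM1 KO replicate 1 and between 26.4 and 103 CPM in the other libraries. NM1 KO replicate 1 had the most Mki67 and was highest for both macrophage sums and the T cell, plasma cell and germinal centre sums. It was lowest for the adipocyte, vascular endothelium, erythroid and mesothelial sums. Of the B cell markers, 0 of 5 were called. Germinal centre and lymph node markers ran from 79.2 to 97.3 CPM in WT and from 69.9 to 116 CPM in NM1 KO, with 0 of 5 tested markers called and Glycam1 at 0 counts throughout. Most of that sum was Bcl6. Cr2 and Fcer2a, both also made by B cells, stood at 2.83 and 7.98 CPM in NM1 KO replicate 1, and at no more than 0.448 and 2.93 CPM in any other library.

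The remaining lists were lower in NM1 KO or overlapped. Of 8 vascular endothelium markers, 0 were positive and 4 fell, Cdh5, Tie1, Egfl7 and Emcn (780 to 1080 against 312 to 482 CPM). That count was 0 without any 1 of the WT libraries, and 1, 5 and 0 without NM1 KO replicates 1, 2 and 3. With all libraries, 232 of all 15828 tested genes were called lower. The fits with 1 library left out called between 1 and 1654 of all genes, as given above. Erythroid markers summed to 1000 to 1110 CPM in WT and 446 to 857 CPM in NM1 KO (0 of 6 tested called), and mesothelial markers to 647 to 994 and 465 to 698 CPM (1 of 5 fell, Wt1, a call lost without each library but NM1 KO replicate 2). Adipocyte markers summed to 27000 to 31600 and 21600 to 27200 CPM, with 1 of 8 positive and 0 called. Stromal progenitor markers overlapped (1930 to 3100 against 2440 to 2670 CPM, 1 of 7 rose, Pdgfra, a call lost without each WT library and without NM1 KO replicate 3), as did plasma cell (105 to 265 against 67.9 to 315 CPM, 0 of 5 called) and neutrophil markers (13.8 to 55.3 against 14.7 to 25.1 CPM, 0 of 4 tested called). Of 10 markers of testis and epididymis, tissues next to one visceral fat pad with many dividing cells, 8 had 0 counts in all libraries. The tested one, Sycp3, was not called by edgeR (log2 1.57, adjusted p = 0.128). DESeq2 and limma-voom called it higher (adjusted p = 0.015 and 0.0478). The calls counted for these lists are those of edgeR. DESeq2 also called Lep and Sdc1 higher and, of the macrophage lists, C1qb, C1qc and Spp1. It called Pecam1, Kdr, Cldn5, Krt19, Pnpla2, Cfd, Hba-a1, Hba-a2, Alas2, S100a9 and Retnlg lower. limma-voom also called C1qb higher, and Pecam1, Kdr and Alas2 lower. The part of these cell types in the levels of the cell cycle genes was not tested.

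Further genes of the same processes were read from lists of other replication and other mitotic genes. Of 26 other replication genes, 20 had a log2 fold change above 0 with a median of 0.13, and 0 were called by edgeR, with 3 higher and 0 lower at an unadjusted p under 0.05, a share close to the 13.0% of all tested genes that were higher. Gmnn, geminin, which blocks relicensing of origins after S phase has begun, stood at 4.84, 4.51 and 4.21 CPM in WT and 9.75, 6.90 and 7.18 CPM in NM1 KO (log2 0.81 ± 0.21, adjusted p = 0.0758). Dut, which removes dUTP, had 0.42 ± 0.14, and Pole, a leading-strand polymerase, 0.79 ± 0.29. DESeq2 and limma-voom both called Gmnn (adjusted p = 0.0086 and 0.0482) and neither called Dut or Pole.

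Of 36 other mitotic genes, 35 were tested, 28 had a log2 fold change above 0 with a median of 0.45, 1 was called higher and 0 lower. At an unadjusted p under 0.05, 7 were higher and 2 lower, beside 13.0% and 10.8% of all tested genes. The called gene was Kif20a, a kinesin of the midbody that completes cell division, which rose from 1.70, 1.73 and 1.44 CPM in WT to 3.48, 3.75 and 3.97 CPM in NM1 KO (log2 1.20 ± 0.24, edgeR adjusted p = 0.0431). The call was lost without any 1 of the libraries, while the log2 fold change stayed between 1.11 and 1.26. The edgeR adjusted p was 0.112, 0.104 and 0.155 without WT replicates 1 to 3, where 37, 4 and 1 of all genes were called. Without NM1 KO replicates 1 to 3 it was 0.091, 0.0508 and 0.133, where 244, 1654 and 5 were called, against 673 with all libraries. The call was also lost with upper-quartile scaling (0.0511), with no filter on low counts (0.0605) and with protein-coding genes alone (0.0506). It held with the GC and length correction (edgeR adjusted p = 0.0429). DESeq2 and limma-voom called Kif20a higher too (adjusted p = 0.00026 and 0.0204). Spc25, a subunit of the NDC80 kinetochore complex, stood at 1.74, 2.81 and 0.922 CPM in WT and 9.04, 3.94 and 4.01 CPM in NM1 KO (log2 1.62 ± 0.51, adjusted p = 0.115). Espl1, separase, the protease that cuts cohesin at anaphase, went against the class, at 10.5, 9.75 and 9.34 CPM in WT and 5.34, 6.56 and 6.34 CPM in NM1 KO (log2 -0.70 ± 0.17, adjusted p = 0.0648). DESeq2 and limma-voom called Espl1 lower (adjusted p = 0.0022 and 0.0342), and DESeq2 called Spc25 higher (0.0175).

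The regulators upstream did not share 1 direction. Of 26 G1 cyclins, kinases, pocket proteins and E2F, MuvB and FOXM1 factors, 14 were positive and 12 negative, with 2 called higher, 0 called lower, and 5 higher and 3 lower at an unadjusted p under 0.05 (13.0% and 10.8% of all tested genes). Cdk6, a G1 kinase, rose from 16.1, 15.5 and 16.0 CPM in WT to 31.5, 25.97 and 32.2 CPM in NM1 KO (log2 0.91 ± 0.13, edgeR adjusted p = 0.0205). Ccnd2, cyclin D2, a partner of that kinase, rose from 262 ± 18.1 to 374 ± 8.29 CPM (n = 3 each, log2 0.52 ± 0.10, edgeR adjusted p = 0.0406). The Cdk6 call was lost without WT replicate 1, 2 or 3 or NM1 KO replicate 3. Those fits called 37, 4, 1 and 5 of all genes, and gave Cdk6 an edgeR adjusted p of 0.0662, 0.0702, 0.0946 and 0.0757. The Ccnd2 call was lost without each library but NM1 KO replicate 2. Its edgeR adjusted p was between 0.0893 and 0.153 without WT replicates 1 to 3. Without NM1 KO replicates 1 and 3 it was 0.0942 and 0.124, where 244 and 5 of all genes were called. The call was also lost with the GC and length correction (log2 0.28, adjusted p = 0.136) and with upper-quartile scaling (0.0557). Ccnd1, cyclin D1, had a log2 fold change of -0.31 ± 0.29. Tfdp2, a partner of E2F factors, had 0.49 ± 0.13 (edgeR adjusted p = 0.0744, DESeq2 0.0182, limma-voom 0.0301, and 0.0328 in edgeR without NM1 KO replicate 2), and a log2 fold change of 0.15 with that correction.

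E2f1, which turns on replication genes, ran from 16.4 to 23.9 CPM in WT and from 22.4 to 27.9 CPM in NM1 KO (log2 0.35 ± 0.17, adjusted p = 0.262). Foxm1 and Mybl2, which turn on mitotic genes, had log2 fold changes of 0.24 ± 0.34 and -0.37 ± 0.32 with overlapping ranges. That of Foxm1 was -0.0040 without NM1 KO replicate 2. None of these 3 factors passed the test, and the SE of Foxm1 exceeds its difference.

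Inhibitors of the cyclin-dependent kinases, which halt the cycle and mark senescent cells, were read beside the proliferation genes. Of 7 such genes, 6 were positive, 1 was called higher and 0 lower, and 3 were higher at an unadjusted p under 0.05 (13.0% of all tested genes). Cdkn2a, the locus of p16 and ARF, rose from 2.07, 2.14 and 0.882 CPM in WT to 8.53, 6.35 and 6.78 CPM in NM1 KO (log2 2.08 ± 0.36, edgeR adjusted p = 0.0309). This call was lost without WT replicate 1, 2 or 3 (edgeR adjusted p = 0.0804, 0.0763 and 0.0877). It was also lost without NM1 KO replicate 1 or 3 (0.0734 and 0.0897). Those fits called 37, 4, 1, 244 and 5 of all genes. Cdkn1a, the p21 inhibitor induced by p53, stood at 52.4, 61.2 and 27.7 CPM in WT and 128, 131 and 96.0 CPM in NM1 KO (log2 1.33 ± 0.29, adjusted p = 0.0528). Cdkn2b, the p15 inhibitor beside Cdkn2a on chromosome 4, stood at 17.8, 12.8 and 11.2 CPM in WT and 25.2, 24.1 and 22.6 CPM in NM1 KO (log2 0.78 ± 0.19, adjusted p = 0.064). DESeq2 and limma-voom called Cdkn1a (adjusted p = 0.000284 and 0.0285) and Cdkn2b (0.00513 and 0.0434) higher. With the GC and length correction, edgeR called both (0.0348 and 0.0389). edgeR also called Cdkn1a with non-robust dispersion (0.0492) and Cdkn2b with no filter on low counts (0.0362). Of the 7, these 3 had every NM1 KO library above every WT library, and 1 other had every NM1 KO library below. Over all 15828 tested genes, 2359 lay above in this way and 2380 below. The lowest log2 fold change of the 7 was -0.301.

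**Figure D5:**
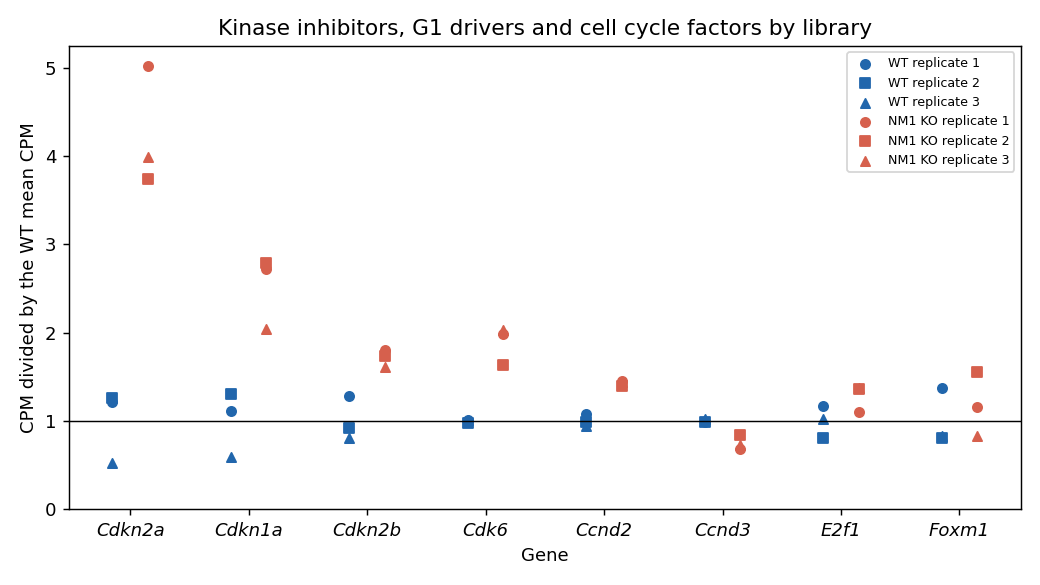
CPM divided by the WT mean for 3 kinase inhibitors, 3 G1 drivers and 2 cell cycle transcription factors, with WT in blue, NM1 KO in red and 1 marker shape per replicate number. Cdkn2a, Cdkn1a, Cdkn2b, Cdk6 and Ccnd2 lie above all WT libraries in each NM1 KO library, Ccnd3 (log2 -0.41, adjusted p = 0.0787) lies below them, and E2f1 and Foxm1 overlap.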

How the data were processed

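Total RNA from visceral fat was sequenced on an Illumina NextSeq after NEBNext Ultra II library preparation, per the labels' protocols. The submitters' processing notes name Trimmomatic 0.36, FastQC, HISAT2 2.0.4, SAMtools 0.1.19, HTSeq and GRCm38 (mm10). The annotation and the strand setting are not named in those notes or in the labels. The authors deposited raw counts per Ensembl gene, 1 table per library. Of 46603 identifiers, 512 had no match in GENCODE M21 (0.0333% of counts), and 0 entries named no gene.

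The members and lists were chosen with earlier results of these data known. Genes were tested with edgeR 4.0.16 (R 4.3.3: filterByExpr, TMM, robust quasi-likelihood, genotype as the only term, two-sided, Benjamini-Hochberg, threshold 0.05) and checked with DESeq2 1.42.0 and limma-voom (limma 3.58.1). The fit was tested on simulated data. CPM per kilobase uses the union of annotated exons, and GC content the longest transcript. Library medians use log2 CPM with a prior count of 2, and the ratio of libraries correlated with GC content a pseudocount of 0.5 CPM. The GC and length correction enters natural splines (5 degrees of freedom each) as offsets. Named genes are the 33 members, Myo1c, E2f1, Foxm1, Mybl2, Ccnd1, Cdkn1a and, per further cell cycle list, the 3 genes of lowest p whose mean reached 1 CPM. Cell type markers and Ccnd3, named after its value was seen, are outside that rule. The ratio of NM1 KO replicates 1 and 3 and the marker sum without Lpl were added after seeing the data. Figures used matplotlib 3.10.9. Within-group library pairs differed by a chi-square per degree of freedom of at least 35.9, so each counted as 1 sample.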

Additional observations from a re-analysis of the deposited data

How the results depend on the processing

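Over 17 alternatives, 536 of 560 values of the members kept their direction and their side of the threshold, 12 passed it and 12 turned sign. For the 17 other named genes, 240 of 289 kept both, 28 lost a call, 19 gained one and 2 turned sign. The turned values (log2) were Rrm1 -0.000234 and Ube2c 0.0434 with the GC and length correction, Tyms 0.0256, 0.0638 and 0.0104 and Ube2c 0.239, 0.0177 and 0.0721 without WT replicate 1, NM1 KO replicate 1 and NM1 KO replicate 3, Mcm5 -0.0736 without WT replicate 3, Ccne2 -0.222 without NM1 KO replicate 1, Cdc20 -0.0829 and Foxm1 -0.004 without NM1 KO replicate 2, and Cdc20 -0.0528 and Foxm1 -0.0413 with limma-voom. With 1 library left out, the values ran from -0.0736 to 0.337 for Mcm5, -0.112 to 0.0638 for Tyms, -0.222 to 0.432 for Ccne2, -0.0829 to 0.167 for Cdc20, -0.405 to 0.239 for Ube2c and -0.004 to 0.535 for Foxm1.

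Of all genes, 673 were called in the fit as reported, 336 with the replicate block, 2239 by DESeq2, 1648 by limma-voom and between 1 and 1654 when 1 library was left out; the cause was not tested. Members called numbered 0, with 1 when low counts were not filtered (more genes tested), 6 by DESeq2, 3 by limma-voom, 0 with the replicate block and between 0 and 2 when 1 library was left out. Members at an unadjusted p under 0.05 numbered 13, and between 6 and 16 when 1 library was left out. The median of replication genes then lay between 0.216 and 0.331, that of mitotic genes between 0.619 and 1.16, and their difference between 0.332 and 0.859, with each upper end of the last pair reached without WT replicate 1. In the other settings, both medians moved by less than the SD between libraries.

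The labels do not say whether equal replicate numbers pair the samples. The deviations from the group means of same-numbered libraries correlated at -0.06, -0.0354 and 0.188. Those of differently numbered libraries correlated at between -0.0975 and 0.112. With 3 libraries per group, these values cannot decide whether the samples were paired. With the block the medians were 0.275 and 0.801. Of the 4 other named genes called in the fit as reported, Kif20a, Ccnd2 and Cdkn2a lost their call (edgeR adjusted p = 0.0945, 0.0732 and 0.057), and Cdk6 kept it. Cdkn1a, not called in the fit as reported, gained a call with the block (edgeR adjusted p = 0.0368). The 3 libraries per group and members with few counts (Bub1, Hmmr, Cenpe and Cenpf) limit what could be detected.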
